A study of Danio rerio with 2 samples.

Results

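The insulin and IGF genes of the zebrafish mTOR signaling array are the 6 pathway genes, of 84 on the plate, whose symbol begins with ins, igf or irs. They are the ligands *ins* and *igf1*, the binding protein *igfbp3*, the receptors *insra* and *insrb*, and the receptor substrate *irs1*. No IGF receptor and no second IGF ligand is among the 84 genes, so the receptor level is represented by the insulin receptor only. RNA came from whole larvae at 10 dpf, from WT zebrafish (AB/TU) and from homozygous NOD1-1IS-/- zebrafish, a line made with Cas9/gRNA that carries an insertion at the *nod1* target site. Each genotype had 3 biological replicates, each a pool of 200 to 250 larvae. The mutant line came from a resource center, and the hatching and survival assays of the study used separate WT and mutant parents. The parents of the array pools are not given in the sources used here, so the allele and the line cannot be told apart. NOD1 is an intracellular receptor for fragments of bacterial peptidoglycan, and the comparison asks which transcripts of growth factor signaling differ when it is missing.

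Insulin is secreted by the beta cells of the pancreas and binds receptor tyrosine kinases, which zebrafish carry as the paralogs *insra* and *insrb*. The activated receptor phosphorylates docking proteins such as IRS1, and these recruit PI3K, whose lipid product brings Akt to the membrane and leads on to mTOR. IGF1 signals through the related IGF receptors and through the same substrates, and IGFBP3 binds IGFs outside the cell and limits how much of them is free.

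All 534 gene wells of the 6 plates gave a threshold cycle (Ct), at most 29.0, and the 24 control wells for genomic DNA and for reverse transcription gave none. Ct is a reversed log2 scale, on which a drop of 1 cycle means a doubling of template at full efficiency. Levels are given as ΔCt, the Ct of a gene less the average of the reference genes *hprt1*, *nono* and *rpl13a* on the same plate, so a lower ΔCt means a higher level. Each gene has its own primer pair, and levels of different genes are therefore not ranked. The gene *nod1* is not on the array, so the genotype of a pool was not checked by its own transcript. In the RefSeq gene table of GRCz12tu, 5 of the 6 identifiers matched a gene of the same symbol. These 5 genes lie on 5 different chromosomes, and none of them shares the chromosome of *nod1*. The sixth, *irs1*, is listed as XM_005157774 with the description insulin receptor substrate 1-B-like. This identifier had no match, and the gene that the table calls *irs1* carries another one, so the paralog read by this well was not settled.

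The transcript of *ins* rose and that of *irs1* fell in NOD1-1IS-/- larvae, whereas *igf1*, *igfbp3*, *insra* and *insrb* did not pass the test. Of the 6 genes, 1 was higher and 1 was lower with an adjusted p under 0.05 from limma. Over the 84 pathway genes, 3.57% were higher and 19.0% were lower by the same rule, 22.6% in all. The calls thus took 2 of 6 genes, which went in opposite directions. In 3 of the 6, *ins*, *insrb* and *irs1*, the pools of 1 genotype all lay on the same side of the other, as in 38.1% of the 84. The median log2 fold change was −0.12 over the 6 genes and −0.11 over the 84.

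**Figure D1:**
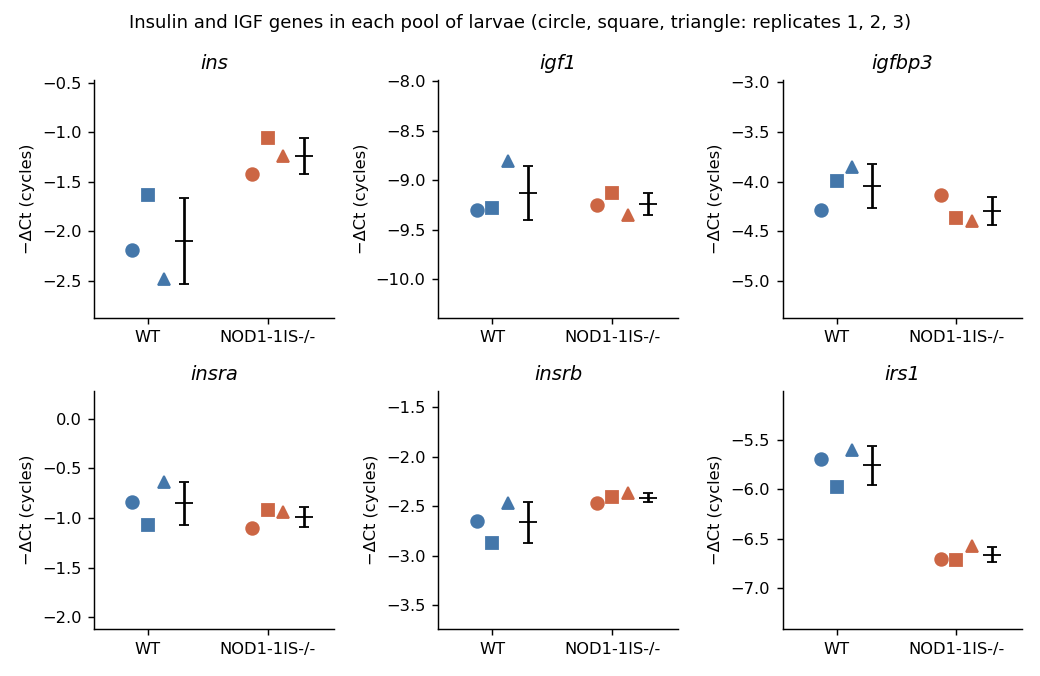
Level of each gene as −ΔCt in cycles (vertical axis, of equal span in every panel) in the 3 WT and 3 NOD1-1IS-/- pools, with the replicate number given by the symbol and mean ± SD in black. The genotypes are apart for *ins* and *irs1*, touch for *insrb*, and overlap for *igf1*, *igfbp3* and *insra*.

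The gene *ins* (NM_131056) codes for preproinsulin, the precursor of insulin. Its ΔCt was 2.19, 1.63 and 2.48 cycles in WT replicates 1, 2 and 3, and 1.42, 1.06 and 1.24 cycles in NOD1-1IS-/- replicates 1, 2 and 3. All 3 mutant pools thus had more *ins* than any WT pool, and the WT pool nearest to them was replicate 2, with a gap of 0.21 cycles. As a multiple of the WT mean, the mutant pools were at 1.60, 2.05 and 1.82, and the WT pools at 0.942, 1.39 and 0.766. Expression was 1.81-fold higher in the mutant, with a 95% interval of 1.34 to 2.46, which is a log2 fold change of 0.86 ± 0.20 (standard error) and an adjusted p of 0.0110 by limma. No other pathway gene had a higher log2 fold change. An exact permutation test, two-sided, gave p = 0.1, the smallest that 3 replicates against 3 allow. The spread among WT pools was 0.43 cycles (SD, n = 3), the largest of the 84 genes, against 0.18 (SD, n = 3) in the mutant and a median of 0.13 in WT over all genes. Without WT replicate 3 the log2 fold change was 0.67 (adjusted p = 0.0555 from limma), and without NOD1-1IS-/- replicate 2 it was 0.77 (adjusted p = 0.0516), within a range of 6.45e-13 to 0.263 over its alternatives. The lower end came with *b2m* alone, where limma gave 1 standard error for all genes. The upper end came from the permutation test with adjustment, which could not call any gene. In whole larvae, more cells that make *ins* and more *ins* RNA per cell cannot be told apart.

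The gene *irs1* codes for a docking protein that couples the activated receptor to PI3K. Its ΔCt was 5.69, 5.98 and 5.60 cycles in WT replicates 1, 2 and 3, and 6.70, 6.71 and 6.57 cycles in the NOD1-1IS-/- replicates. The 3 mutant pools lay within 0.14 cycles of each other, and all of them were below every WT pool, with a gap of 0.59 cycles. The mutant pools held 0.520, 0.518 and 0.570 of the WT mean. This leaves 53.5% of the WT level, with a 95% interval of 44.3% to 64.7%, a log2 fold change of −0.90 ± 0.12 (standard error) and an adjusted p of 4.29e-04 by limma. The exact permutation test, two-sided, again gave p = 0.1. Of the 84 pathway genes, 4 fell further. The call held without any of the 6 replicates, with log2 fold changes from −1.01 to −0.82. With *acta1b* as the only reference gene the value was 0.10 (adjusted p = 0.788 from limma). The smallest adjusted p from limma over its alternatives was 1.38e-09, with *nono* alone. Both of these fits used 1 standard error for all genes.

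Neither receptor paralog passed the test on this scale. For *insra* (NM_001142672), ΔCt was 0.84, 1.07 and 0.64 cycles in WT replicates 1, 2 and 3, and 1.10, 0.92 and 0.94 in NOD1-1IS-/- replicates. The genotypes overlapped, and the log2 fold change was −0.13 with a 95% interval of −0.42 to 0.15 (adjusted p = 0.504 from limma). For *insrb* (NM_001123229), ΔCt was 2.65, 2.87 and 2.47 cycles in WT and 2.47, 2.41 and 2.37 in NOD1-1IS-/-. The mutant pools were all at or beyond the edge of WT, but the gap was only 0.0023 cycles, below the SD of 0.027 to 0.18 cycles among 3 wells of the positive control on a plate. The log2 fold change of *insrb* was 0.25 with a 95% interval of −0.02 to 0.52 (adjusted p = 0.185 from limma). Of the 84 pathway genes, 6 had a higher value. The exact permutation test, two-sided, gave p = 0.1 for *insrb*, as for *ins* and *irs1*.

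The IGF branch showed no change that passed the test. For *igf1* (NM_131825), the growth ligand that acts downstream of growth hormone, ΔCt was 9.30, 9.28 and 8.81 cycles in WT and 9.25, 9.13 and 9.35 in NOD1-1IS-/-. It had the latest Ct of the 84 genes, between 28.5 and 29.0 cycles. WT replicate 3 stood above the other 5 pools, which lay within 0.22 cycles of each other. The log2 fold change was −0.11 with a 95% interval of −0.44 to 0.21 (adjusted p = 0.617 from limma), and without WT replicate 3 it was 0.05. For *igfbp3* (NM_205751), ΔCt was 4.29, 3.99 and 3.85 cycles in WT and 4.14, 4.37 and 4.40 in NOD1-1IS-/-. Mutant replicate 1 lay among the WT pools and the other two below them, and the log2 fold change was −0.26 with a 95% interval of −0.56 to 0.05 (adjusted p = 0.213 from limma). For these 4 genes the intervals leave room for changes of up to 1.47-fold downward (*igfbp3*) and 1.44-fold upward (*insrb*). These limits hold only with *hprt1*, *nono* and *rpl13a* as reference. With all 5 reference genes the log2 fold change of *insrb* was 0.54, above the upper end of its interval here (0.52).

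**Figure D2:**
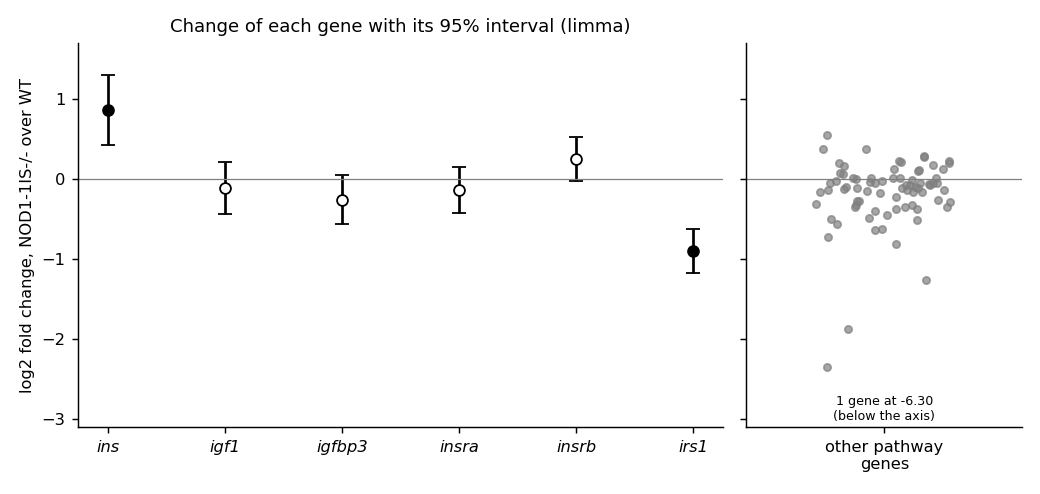
Log2 fold change of NOD1-1IS-/- over WT for the 6 genes (left, points with 95% intervals from limma, filled where the adjusted p is under 0.05) beside the other pathway genes of the array (right, 1 point per gene, spread sideways for legibility, 1 gene at −6.30 lies below the axis). The gene *ins* at 0.86 lies above every other gene, and *irs1* at −0.90 lies below nearly all.

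The genes were also compared with each other on the same plate, where the difference of 2 Ct values needs no reference gene. In this contrast an offset of a plate cancels. The change of *ins* against *irs1* was 1.76 cycles, or 3.39-fold. In WT the Ct of *irs1* minus that of *ins* was 3.50, 4.35 and 3.12 cycles, and in NOD1-1IS-/- it was 5.28, 5.64 and 5.33 cycles. The genotypes did not overlap (two-sided exact permutation test, p = 0.1), and leaving out any 1 replicate gave 1.49 to 2.11 cycles. Each gene was already apart on ΔCt, in opposite directions, so the lack of overlap here was fixed and adds no separate support.

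The receptor paralogs, a pair picked after its values were seen, are given here as a description. The Ct of *insra* minus that of *insrb* was −1.81, −1.80 and −1.83 cycles in WT replicates 1, 2 and 3, a spread of 0.013 cycles (SD, n = 3). In NOD1-1IS-/- it was −1.36, −1.49 and −1.43 cycles, with a spread of 0.064 (SD, n = 3). The level of *insrb* relative to *insra* was thus 1.30-fold higher in the mutant pools, a shift of 0.38 cycles that stayed between 0.35 and 0.42 with any 1 replicate left out. The WT spread of 0.013 cycles is below the SD of 0.027 to 0.18 cycles among 3 wells of the positive control on a plate. It therefore cannot be taken as the precision of the assay. The genotypes did not overlap, as in 45.4% of all pairs of pathway genes and in 3 of the 6 pairs here that hold neither *ins* nor *irs1*. The ΔCt of the 2 receptors varied by 0.20 to 0.22 cycles (SD, n = 3) among WT pools. This spread includes the reference mean that both share, which cancels in their difference. Whether the receptors varied together beyond it was not tested. Against *irs1*, *insra* went from 4.90 ± 0.058 cycles (SD, n = 3) in WT to 5.67 ± 0.10 (SD, n = 3) in the mutant, a shift of 0.77. Against the same gene, *insrb* went from 3.09 ± 0.050 cycles (SD, n = 3) in WT to 4.24 ± 0.050 (SD, n = 3) in the mutant, a shift of 1.15. This last shift follows from the other 2 given here. On ΔCt, *insrb* and *irs1* were already apart in opposite directions, so it adds no separate support.

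Of the 15 pairs among the 6 genes, the genotypes did not overlap for 11, beside the same 45.4%. The pairs share genes and are not independent. Each of the 11 holds *ins*, *irs1* or *insrb*, whose genotypes already did not overlap on ΔCt, so the count partly restates single genes. All 5 pairs with *irs1* and 4 of the 5 pairs with *ins* were among the 11, and the exception was *ins* against *insrb* (0.61 cycles, exact permutation p = 0.3). The pairs among *igf1*, *igfbp3* and *insra* all overlapped, with shifts of 0.019 to 0.14 cycles.

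**Figure D3:**
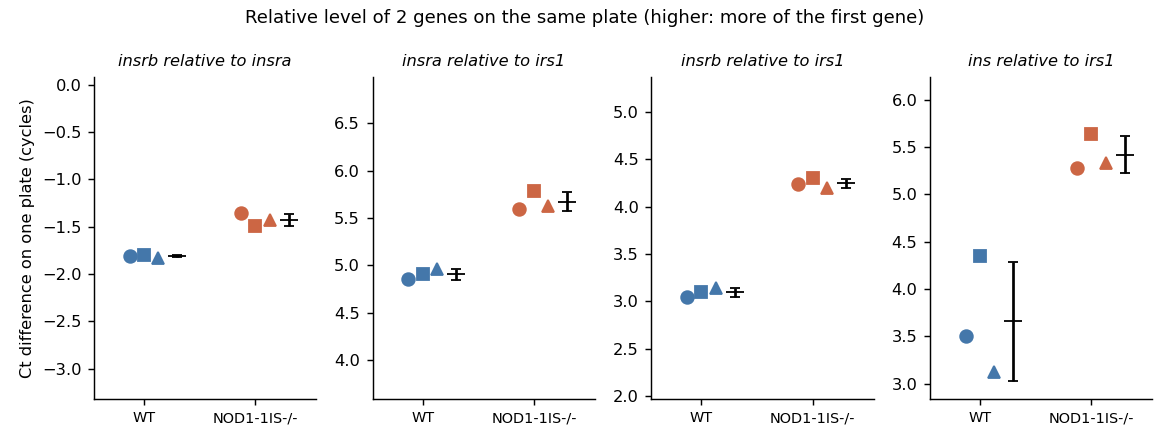
Difference in Ct between 2 genes on the same plate, in cycles (vertical axis, of equal span in every panel, higher means more of the first gene), in the 3 WT and 3 NOD1-1IS-/- pools, with the replicate number given by the symbol and mean ± SD in black. The first 3 panels hold *insrb* against *insra* and each receptor against *irs1*, where pools of a genotype lie close together, and the fourth holds *ins* against *irs1*, where the WT pools are spread.

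Over the 84 genes, the order of the WT pools depended on the scale, whereas among the 6 genes it changed for *igfbp3* only. On ΔCt, WT replicate 3 had the lowest value, hence the highest level, for *igf1*, *igfbp3*, *insra*, *insrb* and *irs1*, and the highest value for *ins*. Of all 84 genes, 53.6% had their lowest ΔCt in replicate 3 and 15.5% their highest. On raw Ct, replicate 3 was the lowest WT pool for 4 of the 6 genes and the highest for *ins*, beside 26.2% and 35.7% of the 84 genes. Replicate 2 was the lowest on raw Ct for *ins* and *igfbp3* and for 65.5% of the 84 genes. ΔCt carries the mean of the reference genes of each pool.

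The calls were followed through 11 other normalizations, because the raw Ct of the reference genes shifted between the genotypes by unlike amounts. The raw Ct changed from WT to NOD1-1IS-/- by −0.51 cycles for *nono*, −0.19 for *hprt1*, −0.21 for *rpl13a*, 0.16 for *b2m* and 0.70 for *acta1b*, and by −0.21 for the positive PCR control. The shifts of *hprt1* and *rpl13a* were thus close to that of the control. However, the control varied by 0.22 cycles (SD, n = 3) among the mutant pools, against 0.0051 (SD, n = 3) in WT. Whether these shifts have a common source was not tested. The gene *ins* was higher with an adjusted p under 0.05 in 11 of 11, with log2 fold changes from 0.66 to 1.86. The gene *irs1* was lower in 10 of 11, from −1.11 to −0.44, and the exception was *acta1b* alone. For *insrb* the value was above 0 in 11 of 11 and past the threshold in 6. Under these 6, 7 to 55 of the 84 genes were called higher, against 3 under the main normalization. Among the 6 were the median of the pathway genes (0.39, adjusted p = 0.0341 from limma) and raw Ct (0.55, adjusted p = 0.00347). Over its alternatives, the adjusted p of *insrb* from limma ran from 1.81e-04 (*b2m* alone) to 0.846 (*nono* alone). Both of these fits used 1 standard error for all genes. For *igf1* and *insra* the direction changed with the reference, as it did for *igfbp3*, and each passed the threshold in 1 of 11. Relative to the median log2 fold change of the array, *ins* was at 0.97, *insrb* at 0.36, *igf1* at −0.0025, *insra* at −0.022, *igfbp3* at −0.15 and *irs1* at −0.79.

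**Figure D4:**
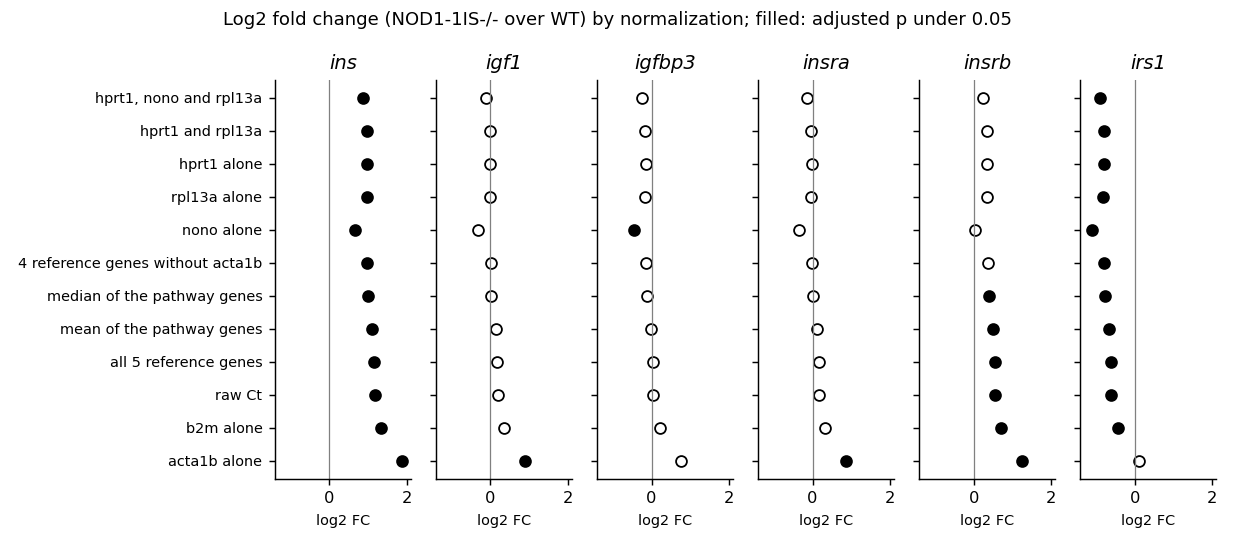
Log2 fold change of NOD1-1IS-/- over WT (horizontal axis) for the 6 genes under the main normalization (top) and 11 others, filled where the adjusted p from limma is under 0.05. Filled points run down the whole panel of *ins* and all but the last of *irs1*, and *insrb* is filled in 6 of the 11.

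Profiles over the 6 pools were compared by the mean absolute difference between the −ΔCt of 2 genes, each relative to its own mean. All profiles share the reference mean of each pool, and a difference between the genotypes enters the measure. The neighbours of a called gene therefore tend to shift in its direction by construction. The gene nearest to *irs1* was *pld2*, a phospholipase D, at 0.15 cycles, followed by *prkab2*, an AMPK subunit, at 0.17 and *rps6ka2*, an RSK kinase, at 0.19, against a median of 0.41 over the other 83 genes. These 3 genes fell as well, by 0.63, 0.81 and 1.26 on the log2 scale (adjusted p = 0.00271, 0.00217 and 3.37e-04 from limma). The genes nearest to *ins* were *mlst8*, a subunit of the mTOR complexes, at 0.32 cycles, *pld1a*, another phospholipase D, at 0.32 and *pik3cd*, a catalytic PI3K subunit, at 0.35, against a median of 0.51. Their log2 fold changes were 0.37, 0.55 and 0.38 (adjusted p = 0.0362, 0.0477 and 0.0618 from limma), and the first 2 were the other genes of the array called higher.

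Next in the pathway stand PI3K, the enzymes that act on or bind its lipid product, Akt and GSK3. The genes below were taken by symbol, so not all of them need act after IRS1. Among them, *akt1s1* does not code for one of these enzymes. Of the 11 genes on the array whose symbol begins with pik3, pten, pdpk, akt or gsk3, 3 were lower and 0 were higher by limma, beside the 19.0% and 3.57% of the whole array. The other 8 did not pass the test, and the median log2 fold change was −0.05. The largest fall was that of *akt2l*, at −6.30 on the log2 scale (adjusted p = 8.40e-09 from limma), and that of *akt2*, another Akt kinase, was −0.40 (adjusted p = 0.0324 from limma). The call of *akt2l* held in 11 of 11 other normalizations and that of *akt2* in 1 of 11, that with *nono* alone. Without 1 replicate at a time, *akt2* was called in 2 of 6 fits. The value of *pik3cd* was 0.38 (adjusted p = 0.0618 from limma), and it was past the threshold in 8 of 11 other normalizations. In those 8, 5 to 55 of the 84 pathway genes were called higher. Without 1 replicate at a time, *pik3cd* was called in 1 of 6 fits. Over the 11 normalizations, the list held 1 to 4 lower and 0 to 7 higher genes. The 4 lower came with *nono* alone, where 29 of the 84 pathway genes were lower. The 7 higher came with *acta1b* alone, where 55 of the 84 were higher. A change of reference moves every gene alike. The log2 fold change of *irs1* lay between those of *akt2* and *akt2l*, as did those of *pld2*, *prkab2* and *rps6ka2*. A link between *irs1* and the Akt genes was not tested.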

How the data were processed

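Pools of WT and NOD1-1IS-/- larvae were read on the zebrafish mTOR signaling PCR array. The authors deposited raw Ct values of every well for 3 biological replicates per genotype, after reverse transcription of 1000 ng of total RNA and 40 cycles of SYBR Green PCR. The authors also deposited a normalized ratio (2 raised to −ΔCt, by the manufacturer's software), with 1 value per gene and genotype and no spread. Those values were reproduced to within 4.00e-07 on the log2 scale from the mean Ct with *hprt1*, *nono* and *rpl13a* as reference genes. The deposited table of fold changes was not used. The threshold and baseline settings of the PCR are not given in the sources used here.

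The genotype of each replicate was taken from the column names of the Ct table. For ΔCt, the average Ct of *hprt1*, *nono* and *rpl13a* in a replicate was subtracted from the Ct of each gene. Mutant and WT −ΔCt values were compared with limma 3.58.1 (lmFit and eBayes, two-sided, R 4.3.3) over all 84 pathway genes, with Benjamini-Hochberg adjustment over the 84 and a threshold of 0.05. The fit was tested on simulated data. No gene was filtered. A two-sided exact permutation test over the replicates was run beside it. The data have no read depth, and precision rests on 3 replicates with 1 well per gene in each. Alternatives were 11 other normalizations, leaving out each replicate, the replicate number as a block, a robust prior with a trend in limma, exact permutation tests with adjustment and the ratio of mean linear values.

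The genes described are all 6 whose symbol begins with ins, igf or irs. Also named are the reference genes, the called genes of a list of downstream genes with the largest fall or rise, and the 3 genes with the nearest profile to each called gene. The gene *akt2*, and the contrasts between pairs of genes other than *ins* with *irs1*, were chosen after their values were seen. In the downstream list, *pik3cd* was named though it was not called. The genes and lists were chosen with earlier results of these data known. Transcript identifiers were looked up in the RefSeq gene table of GRCz12tu, which was used for names and chromosomes only. Single values of some other genes on the array are not given.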

Additional observations from a re-analysis of the deposited data

How the results depend on the processing

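Changing the reference moves every gene alike, and the median log2 fold change of the 84 genes moved by −0.20 (*nono* alone) to 1.005 (*acta1b* alone). With *nono*, *b2m* or *acta1b* alone the standard error from limma was equal for all genes, and those p-values may be too small. The counts of called pathway genes went from 16 lower and 3 higher to 9 and 7 with the median of the pathway genes, 9 and 18 with their mean, 7 and 19 with all 5 reference genes, 7 and 21 with raw Ct, 10 and 4 with *hprt1* alone or *hprt1* and *rpl13a*, 10 and 5 with *rpl13a* alone or the 4 reference genes without *acta1b*, 29 and 1 with *nono* alone, 5 and 39 with *b2m* alone and 3 and 55 with *acta1b* alone.

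With all 5 reference genes, the log2 fold changes were 0.18 for *igf1*, 0.037 for *igfbp3*, 0.16 for *insra* and 0.54 for *insrb*. With raw Ct they were 0.19, 0.046, 0.17 and 0.55, and with *b2m* alone 0.35, 0.21, 0.33 and 0.71, for the same 4 genes. With *acta1b* alone they were 0.89, 0.75, 0.87 and 1.26, and 0.10 for *irs1*. With the mean of the pathway genes they were 0.13 for *igf1*, 0.11 for *insra* and 0.49 for *insrb*, and with the median 0.024, 0.0053 and 0.39. With the 4 reference genes without *acta1b*, *igf1* was at 0.0021, and with *nono* alone *igfbp3* was lower at −0.46. Of the 6 genes, 2 were lower with *nono* alone and 0 with *acta1b* alone. Higher were 4 with *acta1b* alone and 2 with all 5 reference genes, *b2m* alone, the mean or median of the pathway genes, or raw Ct.

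Without 1 replicate at a time, values ran from 0.67 to 1.09 for *ins*, from −1.01 to −0.82 for *irs1*, from 0.15 to 0.35 for *insrb*, from −0.24 to −0.03 for *insra*, from −0.38 to −0.16 for *igfbp3* and from −0.20 to 0.045 for *igf1*. The number of lower genes stayed at 1, and that of higher genes was 0 to 1. An exact permutation test with Benjamini-Hochberg adjustment called 0 genes lower and 0 higher (adjusted p = 0.263 for *ins* at 0.86 and *irs1* at −0.90). With 0.1 as its smallest p it could not call any, and says nothing about stability. A trend with a robust prior changed no call of the 6 genes, and ratios of mean linear values, which carry no test, changed no direction.

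The column labels do not say whether same-numbered replicates of the genotypes were processed together. Their deviations from the genotype means over the 84 genes correlated at r = −0.22, 0.086 and −0.050. Differently numbered replicates correlated at −0.35 to 0.46, so these values cannot settle it. A fit with the replicate number as a block gave the same values with 1 gene lower (*irs1*, −0.90, adjusted p = 8.46e-07 from limma) and 1 higher (*ins*, 0.86, adjusted p = 2.58e-06). Its standard error was the same for all genes. With 3 pools per genotype and 1 well per gene, changes inside the intervals given for *igf1*, *igfbp3*, *insra* and *insrb* could not be resolved.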
